A study of Homo sapiens with 12 samples.

Results

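The comparison described here sets MDA-MB-231 cells that received siRNA mix 2 against YAP and TAZ beside cells that received siRNA mix 1 against the same proteins. MDA-MB-231 is an established human triple-negative breast cancer line with mesenchymal features. The members are the 8 arrays titled for the mixes, 4 with mix 1 and 4 with mix 2, of 12 arrays in the series; the remaining 4 carry RNA of cells given a control siRNA. In all 3 groups the cells were kept at low density in serum-containing medium, received siRNA at 33 nM with RNAi MAX on day 2, had their medium changed on day 3 and were harvested on day 4. The 4 biological replicates of a group carry the letters A to D and went through plating, transfection and harvest side by side, so the p-values below measure the spread between parallel cultures of 1 cell line. Sequences of the siRNAs were not used here. The levels were read on Affymetrix Human Genome U133 Plus 2.0 arrays and are given as log2 values after RMA, which puts the arrays on a common scale.

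YAP (gene YAP1) and TAZ (gene WWTR1) are paralogous transcriptional coactivators. The kinases of the Hippo pathway keep them out of the nucleus, and in the nucleus they bind DNA through the TEAD factors, often at sites that AP-1 factors also occupy. In breast cancer cells they sustain genes of growth, cell division and cell-matrix signalling. An siRNA is loaded into an Argonaute protein and directs the cleavage of the mRNA it matches. Different siRNAs against 1 gene share that target but not their sequence, so a pair of mixes lets each gene be read under the same intended loss.

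The arrays of the mixes were alike in overall level. Array medians ran from 5.71 to 5.78 log2 with mix 1 and from 5.73 to 5.74 with mix 2 (exact two-sided permutation test, p = 0.714; the smallest p that 4 against 4 arrays allow is 0.0286). Across the 13225 genes tested, arrays of the same mix correlated at 0.993 to 0.998 and arrays of different mixes at 0.960 to 0.967. Mix 1 replicate C and mix 2 replicate D lay farthest from their group means over all genes (root mean square distance 0.197 and 0.219 log2). On the second principal component, which held 21.5% of the variance over all 12 arrays, the mixes lay on opposite sides of control. The line's markers VIM, CD44, MSN, AXL, CAV1, EGFR and FOSL1 were above the filter value of 5.46 log2, the level below which probe sets were not tested, on every array. PGR, CDH1 and FOXA1, which define hormone-responsive or epithelial breast cells, were below it on every array; ESR1 (6.07 to 6.49) and ERBB2 (7.59 to 7.98) were above it.

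Both mixes left their targets far below control and at overlapping levels. YAP1 was at 8.44, 8.42, 7.67 and 8.08 log2 with mix 1 (replicates A to D) and at 8.15, 7.98, 8.19 and 8.04 with mix 2, against 11.03 to 11.26 with control siRNA. WWTR1 was at 9.23, 9.25, 8.78 and 9.0 with mix 1 and at 9.02, 8.83, 9.07 and 8.87 with mix 2, against 11.27 to 11.49 in control. In both genes the mixes overlapped, and mix 1 replicate C was the lowest of the 8 arrays. The difference mix 2 minus mix 1 was -0.06 log2 for YAP1 (95% interval -0.35 to 0.23; limma across all genes, two-sided, Benjamini-Hochberg adjusted p = 0.73) and -0.12 for WWTR1 (-0.33 to 0.09; adjusted p = 0.344). These intervals leave room for mix 2 cells to hold between 0.783 and 1.17 times the YAP1 mRNA of mix 1 cells, and between 0.796 and 1.07 times the WWTR1 mRNA. When mix 1 replicate C was left out, WWTR1 was called lower with mix 2 at the threshold of 0.05 (-0.21, adjusted p = 0.0491), and YAP1 was at -0.22 (adjusted p = 0.0585). Without mix 1 replicate A the YAP1 difference was 0.03, and with its probe sets averaged -0.25 (adjusted p = 0.0545); averaged, WWTR1 was at 0.05 (adjusted p = 0.521). Every YAP1 probe set leaned lower with mix 2, while those of WWTR1 differed in direction. Both dimmer YAP1 probe sets were lower with mix 2, by -0.20 (adjusted p = 0.0173 over the probe sets past the filter) and by -0.48 (adjusted p = 0.0288). For the second of them the mix 2 mean (5.415) lay below the filter value, so the size of that difference is uncertain. The dimmest WWTR1 probe set was higher with mix 2, by 0.28 (adjusted p = 0.0488, and 0.076 without the filter), and the remaining one differed by -0.02 (adjusted p = 0.895).

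Beyond the targets, the mixes parted widely. These are bulk RNA levels, in which fewer cells of a type and less RNA per cell cannot be told apart. Of 13225 genes, 3794 were higher with mix 2 than with mix 1 (28.7%) and 3302 were lower (25%) at an adjusted p below 0.05, 53.7% in all. For comparison, 34.8% of genes were higher and 32.3% lower than control with mix 1, and 36.7% and 31.9% with mix 2, against the same 4 control arrays. For 6095 genes (46.1%) all 4 mix 2 arrays lay on one side of all 4 mix 1 arrays. Most differences were small: the median size was 0.23 log2 against a median SE of 0.08, and the median signed difference was 0.025. At least 2-fold separated the mixes for 348 genes higher with mix 2 (2.63%) and 480 lower (3.63%). At least 4-fold separated them for 22 and 52 genes, and at least 8-fold for 1 (HOPX) and 7. Without mix 1 replicate C the at least 2-fold counts were 331 and 503, and without mix 2 replicate D 370 and 455. These shares are the background for each gene group below.

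**Figure D1:**
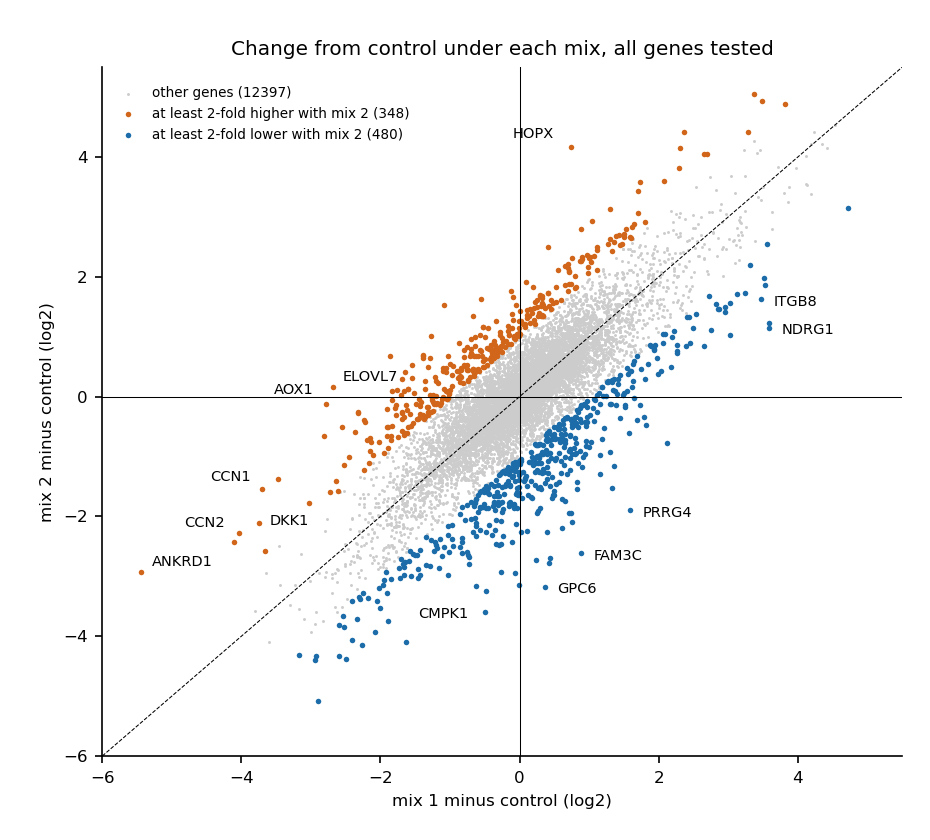
Each point is 1 of 13225 genes, with its mean log2 change from the 4 control arrays under mix 1 (x axis) and under mix 2 (y axis); the dashed line marks equal change. The 348 genes at least 2-fold higher with mix 2 are orange and the 480 at least 2-fold lower are blue; ANKRD1, CCN1, CCN2 and DKK1 lie above the line on the left, where both mixes are below control.

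Where the control arrays stood differed among the genes that part the mixes; both mixes are set against the same 4 control arrays, so these positions are a description. Among the 480 genes at least 2-fold lower with mix 2, whose mixes did not overlap, the control mean lay between the mixes for 208, beyond mix 1 for 196 and beyond mix 2 for 76. It was within 0.5 log2 of mix 1 for 186 genes (38.8%) and within 0.5 of mix 2 for 81 (16.9%). Among the 348 genes at least 2-fold higher with mix 2, control was within 0.5 log2 of mix 1 for 98 (28.2%) and of mix 2 for 113 (32.5%). At 4-fold, 25 of the 52 genes lower with mix 2 had control within 0.5 of mix 1 and 3 had it within 0.5 of mix 2. Of the 22 higher genes, 1 had control near mix 1 in this sense and 5 near mix 2.

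Genes that YAP and TAZ are known to switch on directly were, as a group, higher with mix 2. Of 30 listed direct targets, 28 were tested; 18 were higher with mix 2, 5 lower and 5 did not pass, with a median difference of 0.45 log2. In 6 of the 28 the level was at least 2-fold higher with mix 2 and in 1 at least 2-fold lower. For the 3 targets most used as readouts, ANKRD1, CCN1 and CCN2, both mixes lay far below control, and mix 1 lay lower than mix 2. The list median was -1.0 log2 for mix 1 minus control and -0.85 for mix 2 minus control.

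The promoters of such genes often hold the TEAD core motif GGAATG. The RefSeq table of GRCh38.p14 gives the promoters of ANKRD1 and CCN2; the 250 bases before each annotated start are shown because these are the readout targets that the table holds, with GGAATG (or its reverse complement CATTCC, of which neither window holds one) in capitals. ANKRD1 is at chr10:90921088-90921337, minus strand, and its motifs begin 220 and 128 bases before the start; CCN2 is at chr6:131951373-131951622, minus strand, and its motifs begin 169, 104 and 95 bases before the start.
ANKRD1: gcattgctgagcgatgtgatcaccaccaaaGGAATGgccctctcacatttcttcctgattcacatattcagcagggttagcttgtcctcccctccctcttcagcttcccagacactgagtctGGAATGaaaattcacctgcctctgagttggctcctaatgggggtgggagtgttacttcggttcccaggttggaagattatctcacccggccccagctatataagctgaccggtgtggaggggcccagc
CCN2: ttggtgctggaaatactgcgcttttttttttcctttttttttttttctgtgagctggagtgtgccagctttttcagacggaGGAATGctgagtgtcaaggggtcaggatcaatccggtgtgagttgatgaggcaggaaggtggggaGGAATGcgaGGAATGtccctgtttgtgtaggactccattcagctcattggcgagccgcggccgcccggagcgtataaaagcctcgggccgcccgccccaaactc
At least 1 copy on either strand stood in 11.9% of all 27305 promoters of the table. It stood in 9 of the 23 direct targets matched to the table (39.1%), a list made of known YAP/TAZ targets. Among genes tested the motif stood in 9.47% of 10667. Its share was 12.7% of 283 that were at least 2-fold higher with mix 2, and 9.57% of 418 that were at least 2-fold lower. ANKRD1, CCN2 and WTIP were the direct targets with at least 2 copies; WTIP differed by 0.14 between the mixes (adjusted p = 0.348). A match describes these letters only and says nothing of binding.

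ANKRD1, a nuclear ankyrin repeat protein, was at 7.07, 6.60, 6.97 and 6.79 log2 with mix 1 and at 9.44, 9.38, 9.43 and 9.20 with mix 2, against 12.27 to 12.36 in control. Every mix 2 array was above every mix 1 array, by a mean of 2.50 (SE 0.09, adjusted p = 3.14e-11), or 5.68-fold. CCN1, a secreted matricellular protein, was at 9.43, 9.35, 9.24 and 9.21 with mix 1 and at 11.47, 11.42, 11.41 and 11.57 with mix 2. The groups were again apart, 4.47-fold (2.16 log2, SE 0.07, adjusted p = 6.86e-12), and its other probe set gave 2.15. CCN2, its relative, was at 8.81, 8.37, 8.56 and 8.74 with mix 1 and at 10.42, 10.28, 10.40 and 10.41 with mix 2, a 3.38-fold difference. DKK1, a secreted Wnt antagonist, was at 9.91 to 10.22 with mix 1 and at 11.57 to 11.80 with mix 2, against 13.76 to 13.80 in control. In all 4 genes control lay highest, mix 2 in the middle and mix 1 lowest, with no array of one group inside another.

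**Figure D2:**
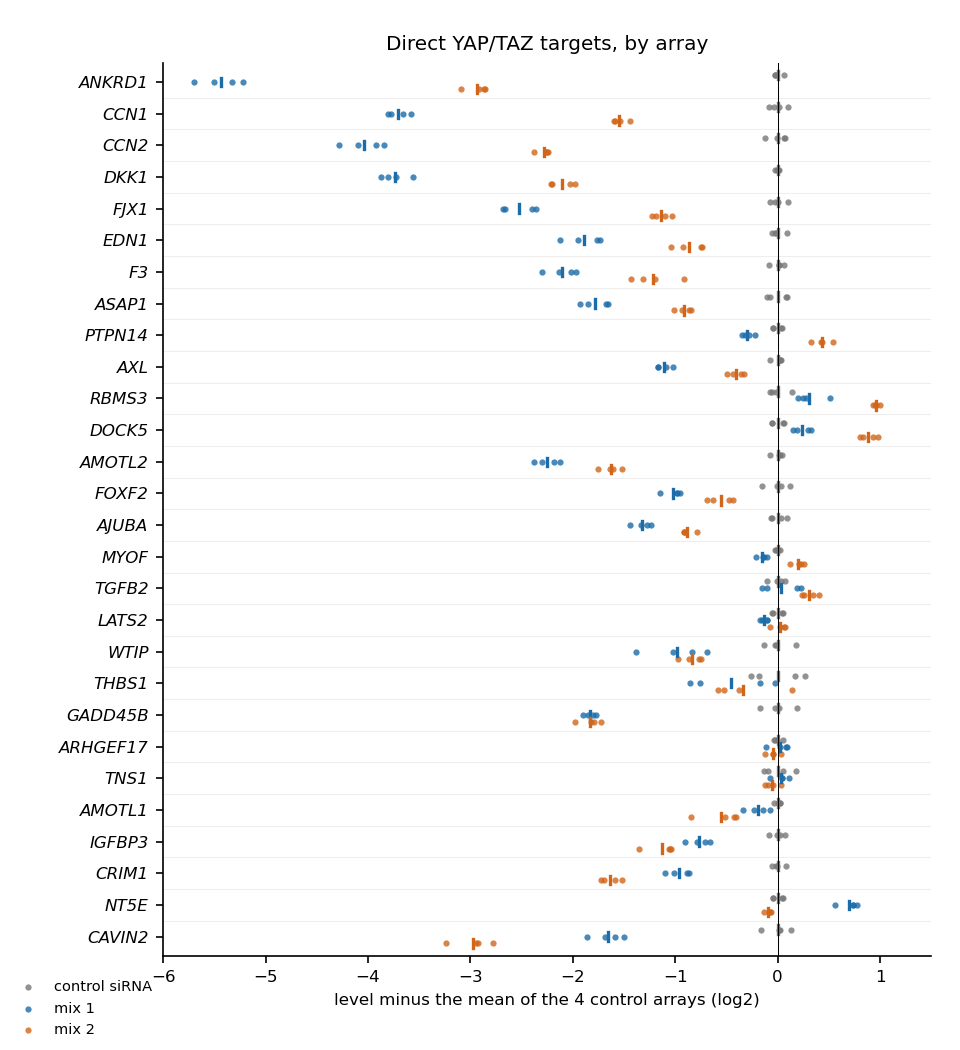
Levels of the 28 tested direct YAP/TAZ targets on each array, as log2 distance from the mean of the 4 control arrays; points are arrays, short bars are group means (n = 4), and genes are ordered by mix 2 minus mix 1, from ANKRD1 (2.50) to CAVIN2 (-1.31).

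Not every direct target followed. CAVIN2, a caveolar coat protein, was at 8.74, 8.65, 8.38 and 8.55 with mix 1 and at 7.46, 7.0, 7.31 and 7.29 with mix 2, lower on every mix 2 array by a mean of 1.31 (difference -1.31, SE 0.10, adjusted p = 6.08e-08); its dimmer probe set did not show this (0.18), and the mean of both was -0.57. NT5E, the surface enzyme CD73 that makes adenosine, was above control with mix 1 (12.71 to 12.92, control 12.10 to 12.20) and close to control with mix 2 (12.01 to 12.08), a difference of -0.79 (-0.51 with its probe sets averaged). CRIM1 (-0.67) and IGFBP3 (-0.36), a binding protein of insulin-like growth factors, were also lower with mix 2. The other list members higher with mix 2 by at least 2-fold were FJX1 (1.39) and the vasoconstrictor peptide gene EDN1 (1.03), both chosen for mention after their values were seen.

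Regulators around YAP and TAZ also parted. Of 29 listed Hippo kinases, upstream regulators and TEAD factors, 25 were tested. With mix 2, 6 were higher (24%, against 28.7% of all genes) and 11 lower (44%, against 25%). Of the lower genes 3 were at least 2-fold lower, and the median was -0.09. VGLL4, a cofactor that competes with YAP and TAZ for TEAD factors, was at 10.70, 10.78, 10.86 and 10.69 with mix 1 and at 9.05, 9.17, 9.23 and 8.91 with mix 2, above the control range of 8.50 to 8.66 in both. LATS1, a kinase that phosphorylates YAP, was at control level with mix 1 (9.73 to 10.26, control 9.92 to 10.34) and below it with mix 2 (8.92, 8.75, 8.86 and 9.46), a difference of -1.07 (SE 0.15, adjusted p = 2.77e-05). MOB1B, the LATS kinases' activating subunit, differed by -1.06. TEAD2 was lower with mix 2 (-0.94, and -0.42 with its probe sets averaged), whereas TEAD4 (0.39, and 0.63 averaged) and the cofactor VGLL3 (0.82) were higher. SAV1, the scaffold of the upstream kinase, was higher too (0.44, and 0.95 averaged).

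The 15 genes lowest with mix 2 relative to mix 1 fell between -3.54 and -2.69 log2, and in 8 of them the mix 1 mean was within 0.5 log2 of the control mean. GPC6, a cell-surface heparan sulfate proteoglycan, was at 9.14, 9.0, 8.93 and 9.0 log2 with mix 1 and at 5.42, 5.52, 5.79 and 5.17 with mix 2, against 8.59 to 8.70 in control. It was 11.7-fold lower with mix 2 (SE 0.10 log2, adjusted p = 4.81e-12), with the mix 2 mean at the filter value, and its second probe set also fell, by 0.57; the mean of both was -2.05 in place of -3.54. FAM3C, a secreted cytokine-like protein linked to epithelial-mesenchymal transition, was at 12.11, 12.14, 11.76 and 11.95 with mix 1 and at 8.39, 8.50, 8.43 and 8.63 with mix 2, with control between them at 11.01 to 11.23; its second probe set differed by -0.47 and did not pass, and the mean of both was -1.99 in place of -3.50. PRRG4, a membrane protein with a Gla domain, was at 7.80 to 8.41 with mix 1, at 6.42 to 6.75 in control and at 4.31 to 4.95 with mix 2, below the filter value, so the size of its difference (-3.48) is uncertain.

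TMTC3, a mannosyltransferase of the endoplasmic reticulum, was at 9.87 to 10.20 with mix 1, at 9.55 to 9.83 in control and at 6.69 to 7.09 with mix 2, a difference of -3.20. OSTM1, which lysosomal chloride transport needs, differed by -3.13, with control (9.28) near mix 1 (9.72 ± 0.12, SD, n = 4) and mix 2 at 6.59 ± 0.14. GJA3, a connexin, was at 8.05 to 8.31 with mix 1 and at 8.0 to 8.23 in control, ranges that overlap, and at 4.85 to 5.14 with mix 2, below the filter value; its second probe set differed by -0.36, and the mean of both was -1.75 in place of -3.13. CMPK1, the kinase that feeds pyrimidine nucleotides to RNA and DNA synthesis, was at 11.34 to 11.62 with mix 1, at 11.99 to 12.06 in control and at 8.36 to 8.48 with mix 2 (-3.10). MBTPS2, the protease that releases SREBP and ATF6 from the Golgi, differed by -2.97. LIN7C, a scaffold of cell polarity, differed by -2.88 (-1.40 without shared probe sets), MANEA, an enzyme of N-glycan processing, by -2.85, and PRMT6, an arginine methyltransferase of histones, by -2.80. LYRM1 (-2.76) and REEP3 (-2.69) complete the 15 with 2 surface receptors. In these receptors, ADGRG1 (-2.90) and the death receptor TNFRSF21 (-2.85), mix 1 lay above control (11.63 against 9.51, and 12.24 against 10.91) and mix 2 below it (8.73 and 9.39); the second probe set of ADGRG1 did not part the mixes (-0.18), and the mean of both was -1.54.

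**Figure D3:**
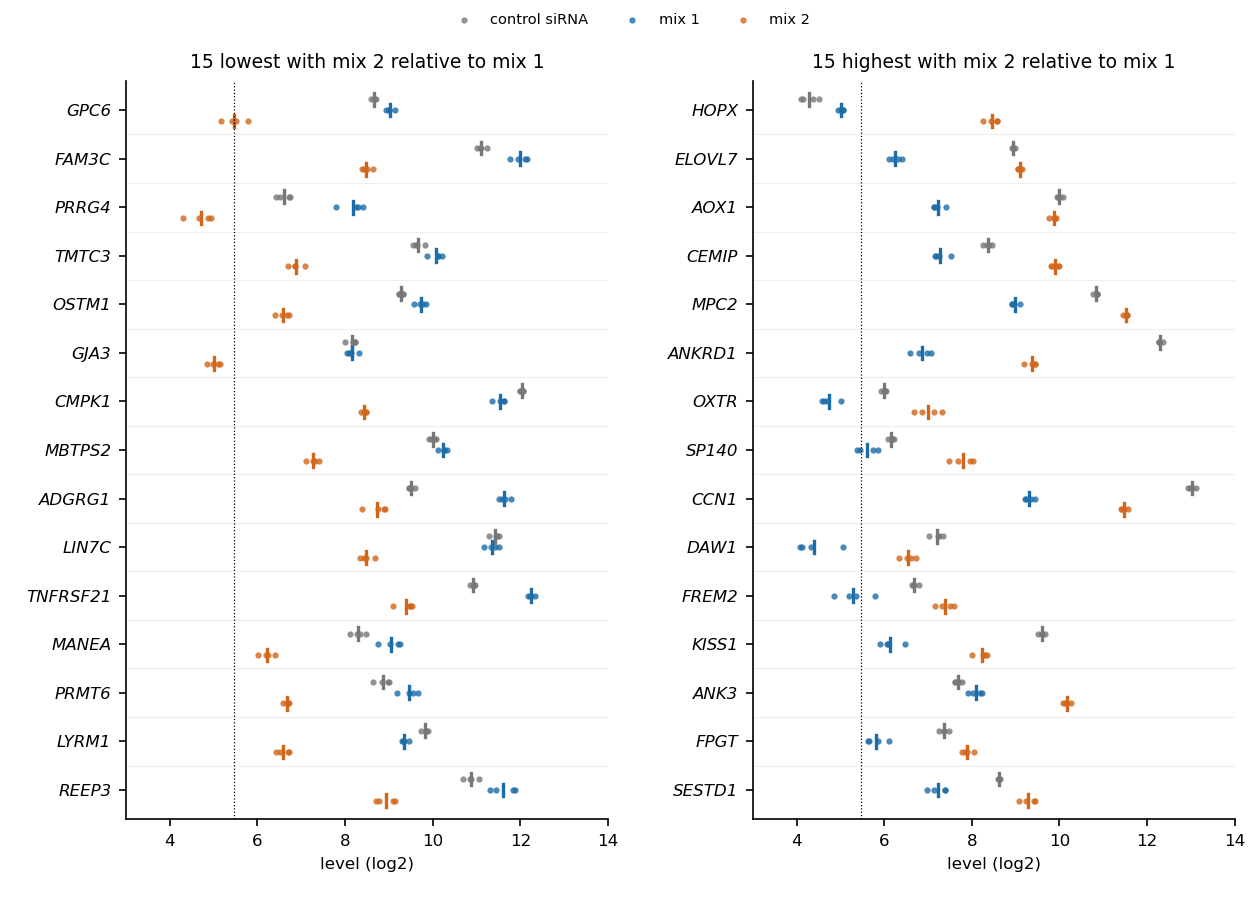
Log2 level on each array of the 15 genes lowest (left) and the 15 highest (right) with mix 2 relative to mix 1; points are arrays, short bars are group means (n = 4), and the dotted line is the filter value of 5.46. For 14 of the genes on the left, all but ADGRG1, the control bar is nearer to mix 1 than to mix 2.

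The 15 genes highest with mix 2 ran from 3.43 down to 2.07 log2. HOPX, a homeodomain-only protein of differentiating epithelia and muscle, was below the filter value in control (4.10 to 4.51) and with mix 1 (4.94, 5.07, 5.02 and 5.07) and at 8.57, 8.25, 8.58 and 8.43 with mix 2. The mix 2 arrays were far above all others, by 3.43 over mix 1 (SE 0.09, adjusted p = 3.73e-12), a size that is uncertain because the lower levels are near background. ELOVL7, a fatty acid elongase, was at 6.4, 6.2, 6.10 and 6.31 with mix 1 and at 9.15, 9.11, 9.06 and 9.06 with mix 2, where control stood at 8.92 to 8.99. AOX1, aldehyde oxidase, was at 7.13 to 7.40 with mix 1 and at 9.77 to 9.92 with mix 2, against 9.95 to 10.07 in control. In these 2 genes mix 1 was the group that stood apart, 7.17-fold and 6.27-fold below mix 2.

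CEMIP, which degrades hyaluronan, and MPC2, a subunit of the mitochondrial pyruvate carrier, were below control with mix 1 and above it with mix 2. CEMIP was at 7.15 to 7.53, 8.25 to 8.47 and 9.80 to 10.00 in mix 1, control and mix 2, and MPC2 at 8.91 to 9.10, 10.77 to 10.86 and 11.45 to 11.53. OXTR, the oxytocin receptor, followed the same order (4.73, 6.0 and 7.0), with mix 1 below the filter value. KISS1, the precursor of the peptide kisspeptin, was lower than control in both, more so with mix 1 (6.13 ± 0.24) than with mix 2 (8.22 ± 0.15, SD, n = 4 each; control 9.60). SP140, a chromatin reader of the immune system, was 2.18 higher with mix 2, ANK3, the membrane scaffold ankyrin G, 2.08, and FPGT, a sugar nucleotide enzyme, 2.07. FREM2, an extracellular matrix protein, and DAW1, an assembly factor of ciliary dynein, were higher by 2.10 and 2.15, from mix 1 levels below the filter value. SESTD1 completes the 15, with 2.07.

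Genes of mitosis were lower with mix 2 more often than those of the other 25 lists examined. Of 51 tested, 44 were lower with mix 2 (86.3%), 1 was higher and 6 did not pass; 9 were at least 2-fold lower, and the median was -0.62. Of 55 tested genes for entry into S phase and for copying DNA, 34 were lower (61.8%), 3 higher (5 with the filter at the 60th percentile) and 18 did not pass, with 7 at least 2-fold lower and a median of -0.37. Both lists were already far below control: 50 of 51 and 52 of 55 genes were lower than control under both mixes. The medians against control were -1.78 with mix 1 and -2.53 with mix 2 for mitosis, and -1.88 and -2.06 for replication.

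KIF15, a spindle kinesin, was at 7.72, 7.57, 7.49 and 7.50 log2 with mix 1 and at 5.95, 5.51, 5.66 and 5.62 with mix 2, against 9.74 to 9.90 in control. It was 3.69-fold lower with mix 2 on non-overlapping arrays (SE 0.09 log2, adjusted p = 3.33e-10). The kinesins KIF23 (-1.39) and KIF4A (-1.18) and the spindle-pole protein gene ASPM (-1.34, and -0.85 without shared probe sets) were lower as well. CDC25B, a phosphatase that activates cyclin-dependent kinases, was the 1 mitosis gene higher with mix 2: it was at 9.16 to 9.57 with mix 1 and at 10.08 to 10.20 with mix 2, near the control range of 10.16 to 10.34.

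CDC25A, its relative at the G1/S transition, went the other way, at 7.18 to 7.39 with mix 1 and 5.42 to 5.76 with mix 2 (-1.65, and -1.10 with its probe sets averaged). SKP2, the F-box protein that marks CDK inhibitors for degradation, was at 8.10, 8.11, 7.84 and 7.94 with mix 1 and at 6.5, 6.58, 6.52 and 6.60 with mix 2, against 10.94 in each control array, and so was 2.73-fold lower with mix 2 than with mix 1. PRIM1, the primase subunit, differed by -1.32. E2F7, a repressor of the E2F family, was above control with mix 1 (12.33 to 12.45, control 11.58 to 11.68) and below it with mix 2 (10.70 to 10.88), a difference of -1.64 (-1.07 with its probe sets averaged). RPA3 (0.61), the small subunit of the single-strand binding complex, and TIPIN (0.39), a replication fork protector, were higher with mix 2. Of 21 tested genes of homologous recombination and Fanconi repair, 8 were lower (38.1%, against 25% of all genes) and 6 higher with mix 2 (28.6%, against 28.7%). The median was -0.13, and they ran from RAD51AP1 (-1.74) to RAD51D (0.55).

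Brakes on the cell cycle did not move as a block. Of 24 tested CDK inhibitors, pocket proteins and p53 targets, 13 were lower with mix 2 and 8 higher, with a median of -0.26. CDKN1A, the CDK inhibitor p21, was at 10.71, 10.64, 10.70 and 10.53 with mix 1 and at 9.21, 9.24, 9.23 and 9.09 with mix 2, where control was at 9.0 to 9.15. It stood 1.54 above control with mix 1 and 0.09 with mix 2, and the mixes differed by -1.45 (SE 0.06, adjusted p = 1.38e-10). TP53INP1, a stress-induced p53 cofactor, was above control in both, at 10.67 to 10.87 with mix 1 and 9.23 to 9.32 with mix 2 (control 7.44 to 7.69); its other probe set did not part the mixes (0.05), and the mean of both was -0.73. MDM2, the ligase that degrades p53, differed by -1.71 (1 of its 3 other probe sets by only -0.05, and the mean was -1.12), and RRM2B, a p53-induced ribonucleotide reductase subunit, by -1.28.

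RB1, the retinoblastoma protein, was at 9.93, 9.83, 9.32 and 9.76 with mix 1 and at 11.01, 10.93, 10.82 and 11.23 with mix 2, against 11.14 to 11.44 in control. It was 2.44-fold higher with mix 2 (SE 0.12 log2, adjusted p = 5.36e-07), because mix 1 lay well below control and mix 2 close to it. Its relative RBL2 was also higher with mix 2 (0.90), as were the p53 targets TP53I3 (0.99) and ZMAT3 (0.52). Of 29 tested genes of MYC and ribosome biogenesis, 12 were lower and 5 higher with mix 2 (median -0.13); the count of higher genes was 3 without mix 1 replicate B and 2 without mix 2 replicate A or C. MYC itself was at 9.94 ± 0.13 with mix 1 and 10.28 ± 0.13 with mix 2, a difference of 0.34 (adjusted p = 0.00186). POLR3G, a subunit of RNA polymerase III, was the farthest apart (-1.89), with mix 2 below the filter value; its other probe set did not part the mixes, and the mean of both was -0.94.

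Immediate early and AP-1 genes, which growth factor signalling induces within minutes, were mostly lower with mix 2. Of 20 tested, 14 were lower with mix 2 (70%), 2 higher and 4 did not pass, with a median of -0.61. Without shared probe sets 7 of 13 were lower and 1 was higher, with a median of -0.42. The median was -0.425 with the mean of each gene's probe sets and -0.50 with the filter at the 60th percentile. The list median against control was 0.59 with mix 1 and -0.07 with mix 2. FOS was at 7.03, 6.84, 6.88 and 7.0 log2 with mix 1 and at 5.33, 5.42, 5.52 and 5.62 with mix 2, where control was at 5.37 to 5.54, at about the filter value. Its mix 2 and control arrays overlapped and its mix 1 arrays stood 2.76-fold above mix 2 (SE 0.07 log2, adjusted p = 5.85e-10). EGR1 was at 9.03 to 9.13 with mix 1 and 7.99 to 8.15 with mix 2 (control 8.30 to 8.47), and IER2 differed by -1.12.

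FOSL1, the AP-1 subunit FRA1 that is abundant in this line, did not share that pattern. It was below control in both, at 8.91, 8.93, 8.91 and 8.53 with mix 1 and at 7.26, 7.23, 7.22 and 7.29 with mix 2, against 10.08 to 10.49 in control. Mix 2 was thus 2.97-fold below mix 1 (SE 0.10 log2, adjusted p = 6.7e-09). BATF3, an AP-1 family partner, was higher with mix 2 (0.50).

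**Figure D4:**
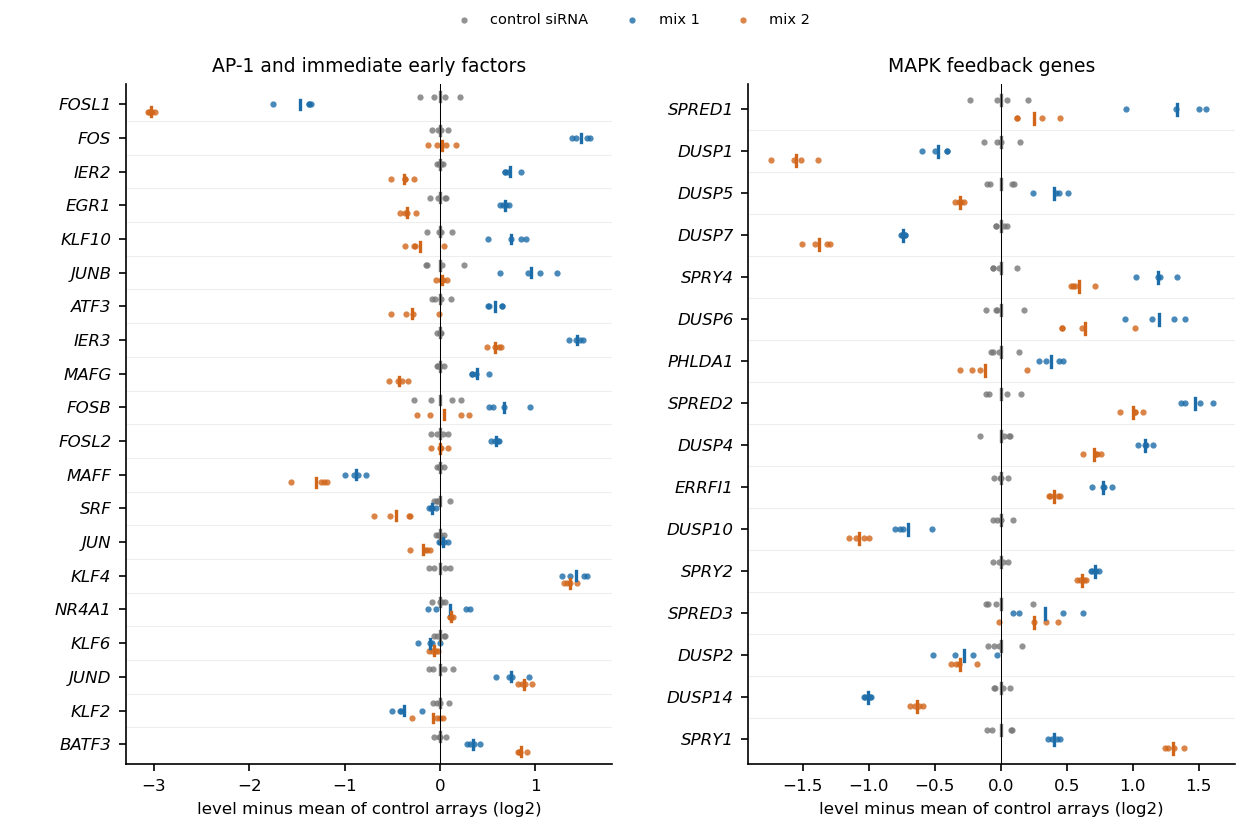
Levels of 20 AP-1 and immediate early genes (left) and 16 MAPK feedback genes (right) on each array, as log2 distance from the mean of the 4 control arrays; points are arrays and short bars are group means (n = 4). For FOS, the mix 1 arrays stand 1.49 above control and the mix 2 arrays 0.02.

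Feedback inhibitors of the MAPK pathway, which that signalling also induces, parted in the same direction for most members. Of 16 tested, 11 were lower with mix 2 (68.8%) and 2 higher, with a median of -0.43. SPRED1, a membrane inhibitor of RAS signalling, was at 10.82, 10.76, 10.21 and 10.59 with mix 1 and at 9.57, 9.38, 9.38 and 9.71 with mix 2 (control 9.03 to 9.47). DUSP1, a phosphatase of MAP kinases, was at 9.07 to 9.26 with mix 1 and 7.92 to 8.28 with mix 2 (-1.08), although its dimmer probe sets did not part the mixes (0.00 and 0.08) and the mean was -0.33. DUSP5 (-0.71) and DUSP7 (-0.64, and -0.41 averaged) were lower too. SPRY1, another inhibitor, was higher with mix 2, at 10.50 to 10.64 against 9.61 to 9.70 with mix 1, and both were above control (9.15 to 9.34).

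The receptors and ligands upstream were divided. Of 8 tested EGFR family genes, 4 were higher with mix 2 and 3 lower (median 0.14, which was -0.01 with the mean of each gene's probe sets and -0.17 without shared probe sets). The ligand genes EREG, HBEGF and TGFA were lower with mix 2, at -0.92, -0.66 and -0.65 (with probe sets averaged, EREG was at -0.60 and TGFA at -0.26). EREG was at 11.04, 11.02, 10.54 and 10.81 with mix 1 and at 9.91, 9.70, 9.76 and 10.38 with mix 2, above the control range of 8.53 to 8.97 in both. The receptor gene ERBB4 was higher with mix 2 (7.03 to 7.52) than with mix 1 (5.54 to 6.22), and control lay below the filter value (3.48 to 4.25). EGFR differed by 0.18 (adjusted p = 0.0079; 0.33 with its probe sets averaged), with 11.70 ± 0.07 and 11.88 ± 0.05.

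Of 20 tested genes of TGF-beta signalling, 9 were lower with mix 2 (45%, against 25% of all genes) and 5 higher (25%, against 28.7%). The median was -0.17, and 0.02 without shared probe sets. SMAD3, a transducer of the pathway, was at 10.50 to 10.53 with mix 1 and 9.37 to 9.60 with mix 2 (-1.0), on its brightest probe set; its other probe sets differed by -0.10, and the mean was -0.40. SMAD7, the pathway's inhibitor, was lower with mix 2 (-0.97), while the co-receptor TGFBR3 (1.09), the ligand subunit INHBA (0.73) and the decoy receptor BAMBI (0.58) were higher. NF-kB and cytokine genes were lower with mix 2 in 9 of 18 and higher in 3 (median -0.20, and -0.12 without the filter), between NFKBIA (-0.87), the inhibitor of NF-kB, and IL6 (0.77). Interferon-induced genes parted the mixes about as often as all genes did. Of 33 tested, 10 were lower (30.3%, against 25% of all genes) and 9 higher (27.3%, against 28.7%), with a median of 0.05. The list's medians against control were nearly equal (0.99 with mix 1 and 0.97 with mix 2). IFI44L (-1.04) and the peptide transporter TAP1 (-0.76) were lower with mix 2; ISG20 (0.98), IFI27 (0.65) and IFIT1 (0.59) were higher.

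**Figure D5:**
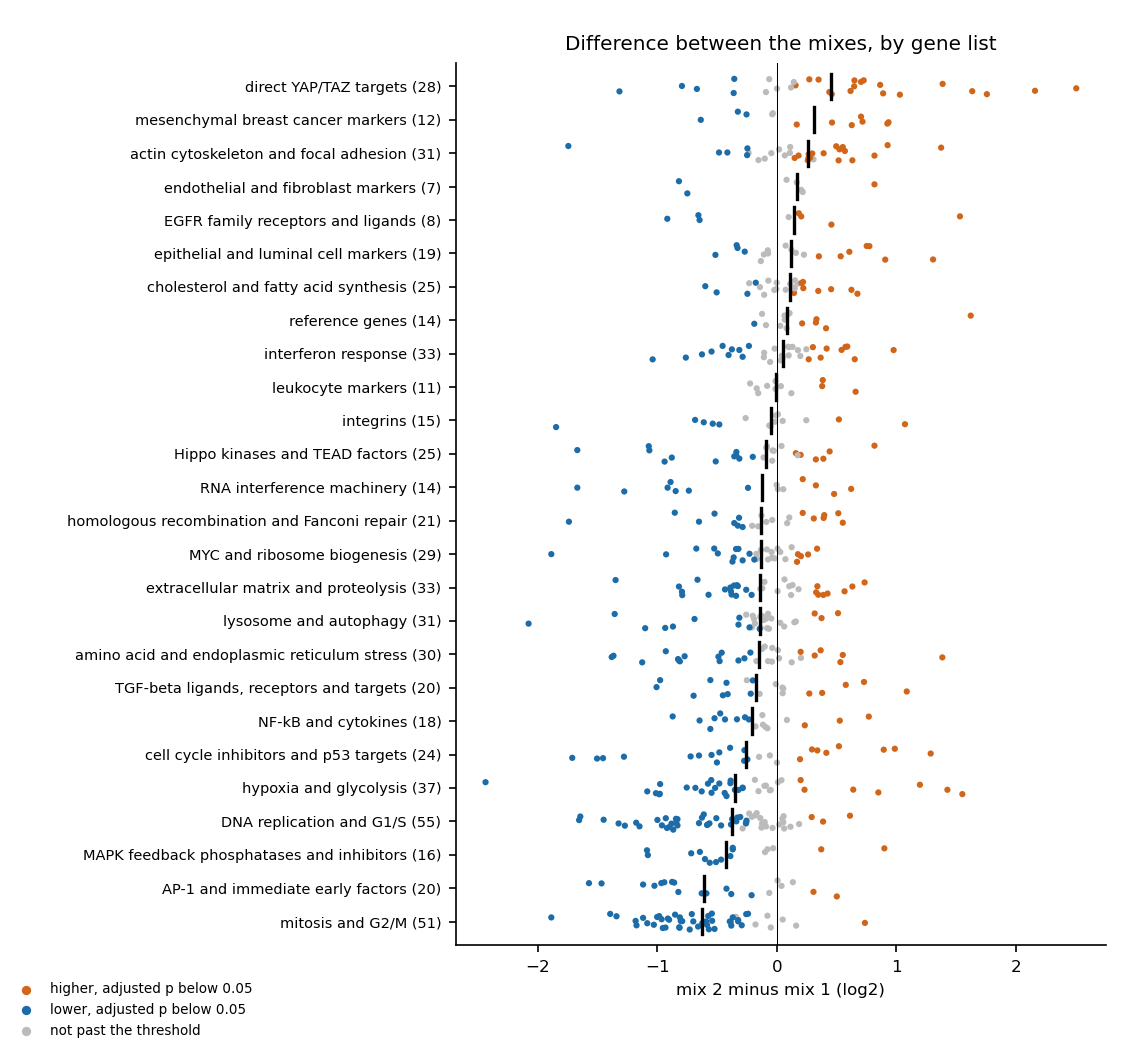
Log2 difference mix 2 minus mix 1 for each tested member of 26 gene lists, with the number tested in parentheses; orange and blue points passed the threshold (adjusted p below 0.05) as higher and lower, grey ones did not, and black bars are list medians, from -0.62 for mitosis to 0.45 for direct YAP/TAZ targets.

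Genes of hypoxia and glycolysis were mostly lower with mix 2. Of 37 tested, 22 were lower (59.5%) and 7 higher, with a median of -0.35. NDRG1, which low oxygen and stress induce, was at 12.66, 12.70, 12.68 and 12.66 log2 with mix 1 and at 10.30, 10.19, 10.39 and 10.08 with mix 2, against 8.99 to 9.23 in control. All 8 arrays were above control, and mix 1 was 5.41-fold above mix 2 (SE 0.07 log2, adjusted p = 5.47e-12). ADM, an induced vasodilator peptide, differed by -1.08, P4HA1, a collagen prolyl hydroxylase, by -1.01, and PFKFB3, an activator of glycolysis, by -0.98.

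EPAS1, the hypoxia-inducible factor HIF2A, ran against this, at 8.56, 8.49, 8.38 and 8.46 with mix 1 and 10.08, 10.07, 10.08 and 9.87 with mix 2, on either side of control (9.44 to 9.52). P4HA2 (1.43, and 0.92 with its probe sets averaged), HK2, the first enzyme of glycolysis (1.20, and 0.68 averaged), and LOX, which crosslinks collagen (0.85), were also higher with mix 2. Of 30 tested genes that respond to amino acid shortage or stress of the endoplasmic reticulum, 14 were lower and 6 higher (median -0.15, and 0.02 without shared probe sets). XBP1, a factor of the unfolded protein response, was higher with mix 2 (11.08 to 11.46) than with mix 1 (9.53 to 10.02), and its activating enzyme ERN1 was lower (-1.38); the other XBP1 probe set did not part the mixes (0.13), and the mean of both was 0.76. The transporter gene SLC7A1 (-1.12) and the lipoprotein receptor gene VLDLR (-1.36) were lower.

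Of 31 tested lysosome and autophagy genes, 10 were lower with mix 2 (32.3%, against 25% of all genes) and 3 higher (9.68%, against 28.7%). LAMP2, a lysosomal membrane protein, was at 12.21, 12.07, 12.22 and 12.28 with mix 1 and at 10.29, 10.15, 10.16 and 9.88 with mix 2, on either side of control (11.25 to 11.33), and its 3 other probe sets were lower as well, between -3.41 and -0.67; without shared probe sets the difference was -0.67 in place of -2.08. The proton pump subunit gene ATP6V1A (-1.35), the autophagy gene BECN1 (-1.10) and the protease gene CTSD (-0.93) were lower. Of 25 tested cholesterol and fatty acid genes, 8 were higher (32%, against 28.7% of all genes) and 4 lower (16%, against 25%). All were within 2-fold, a size that only 2.63% of all genes reached as higher and 3.63% as lower. They ran from SREBF2 (-0.60, and -0.29 with its probe sets averaged) to HSD17B7 (0.68). The median was 0.11 (0.01 with the mean of each gene's probe sets).

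Genes of actin and focal adhesions were more often higher with mix 2. Of 31 tested, 17 were higher (54.8%) and 5 lower, with a median of 0.26. The median was 0.18 with the filter at the 60th percentile, 0.20 with the mean of each gene's probe sets and 0.21 without mix 1 replicate A. MYH10, a non-muscle myosin heavy chain, was at 9.22, 9.18, 9.16 and 9.31 log2 with mix 1 and at 10.60, 10.61, 10.68 and 10.48 with mix 2, against 11.07 to 11.14 in control. TGFB1I1, the focal adhesion adaptor HIC5 (0.93), ACTA2, smooth muscle actin (0.82), and TAGLN2 (0.63) were higher. CFL2, the actin-severing protein cofilin 2, was at control level with mix 1 (10.90 to 11.06, control 11.01 to 11.10) and lower with mix 2 (9.12 to 9.39; -1.74, SE 0.07, adjusted p = 1.22e-10), and both of its other probe sets were lower too.

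Of 33 tested matrix and protease genes, 16 were lower with mix 2 (48.5%, against 25% of all genes) and 8 higher (24.2%, against 28.7%). The median was -0.14. LAMB3 (-1.35) and LAMB1 (-0.79), laminin chains, COL1A1 (-0.82, and -0.30 with its probe sets averaged), a collagen chain, and the protease gene PLAU (-0.79) were lower; the protease inhibitor gene SERPINE2 (0.57) and the laminin gene LAMA4 (0.63) were higher. Among 15 tested integrins 5 were lower (33.3%, against 25% of all genes) and 2 higher (13.3%, against 28.7%). ITGB8 was at 9.29, 9.29, 8.60 and 9.25 with mix 1 and at 7.32, 7.11, 7.18 and 7.44 with mix 2, and ITGA10 at 9.62 to 10.05 and 10.78 to 11.10; both were far above control under either mix (5.54 to 5.86 and 5.72 to 6.17).

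Of 12 tested mesenchymal breast cancer markers, 7 were higher with mix 2 (58.3%, against 28.7% of all genes) and 3 lower (25%, as of all genes). The median was 0.32 (0.11 without the filter). CAV2, a caveolin (0.94, and 0.42 without shared probe sets), the cadherin gene CDH11 (0.93), SNAI2, a repressor of epithelial genes (0.72), and AXL, a receptor tyrosine kinase (0.70), were higher, and the repressor gene ZEB1 was lower (-0.64). VIM differed by -0.04 at 14.40 ± 0.02 with mix 1 and 14.37 ± 0.02 with mix 2.

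Among 19 tested epithelial and luminal markers, 7 were higher with mix 2 (36.8%, against 28.7% of all genes) and 4 lower (21.1%, against 25%). The median was 0.12, and -0.07 without shared probe sets. EPCAM, an epithelial adhesion protein, was at 9.48, 9.25, 8.82 and 9.23 with mix 1 and at 10.50, 10.42, 10.48 and 10.61 with mix 2, on either side of control (9.47 to 9.63) apart from the mix 1 A array, which reached the control range. AGR2, a protein disulfide isomerase of secretory epithelia, was at 12.44 to 12.52 with mix 1 and 13.33 to 13.44 with mix 2, and control was at 9.03 to 9.19. CGN (0.78) and ELF3 (0.75, and 0.45 without shared probe sets) were higher with mix 2, and KRT19 was lower (-0.51). The summed linear level of the 26 measured epithelial markers was 31600 to 34152 with mix 1, 33580 to 36885 with mix 2 and 17091 to 17854 in control.

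Markers of cells that the culture should not hold were mixed in level. Of 14 leukocyte markers measured, 3 (PTPRC, MS4A1 and NKG7) were below the filter value on all 12 arrays and 6 above it on all, CD3E (5.92 to 6.44), CD4 (5.99 to 6.57) and CD79A (5.79 to 6.34) among them. LYZ, lysozyme, was at 9.14 with mix 1 and 9.18 with mix 2 against 4.96 in control, and the antigen presentation genes CD74 (9.51 and 9.50) and HLA-DRA (8.53 and 8.92) were also well above the filter value. Of 15 endothelial and fibroblast markers, 4 (CDH5, TEK, PDGFRA and FAP) were below it on all arrays and 6 above it on all. Of 11 tested leukocyte markers, 3 were higher with mix 2 (27.3%, against 28.7% of all genes). The other 8 did not pass (1 of these was lower without mix 2 replicate D). The summed linear level of the 14 measured was 2197 to 2393 with mix 1 and 2356 to 2455 with mix 2. Of 7 tested endothelial and fibroblast markers, 1 was higher (14.3%, against 28.7% of all genes) and 2 were lower (28.6%, against 25%). The count of higher genes was 2 without mix 1 replicate D or mix 2 replicate A or D. PECAM1, shared by endothelium and blood cells, was at 8.62 ± 0.10 with mix 1 and 7.88 ± 0.10 with mix 2. The summed level of the 15 measured was 1456 to 1676 with mix 1 and 1217 to 1280 with mix 2. This linear sum weighs the brightest members most, PECAM1 and COL1A1 (9.34 with mix 1 and 8.52 with mix 2). The median difference of the 7 tested was 0.17. Without the filter 4 of 15 were higher, and across the alternatives 1 to 2 were lower. The part of other cells in the differences above was not tested.

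Genes of the RNA interference machinery also parted the mixes, as 53.7% of all genes did. Of 14 tested, 7 were lower with mix 2 (50%, against 25% of all genes). Higher were 4 (28.6%, against 28.7%), or 1 with the mean of each gene's probe sets. The median was -0.12, and -0.40 without shared probe sets. AGO2, the Argonaute that cleaves siRNA targets, was at 10.10, 10.22, 9.87 and 9.82 log2 with mix 1 and at 8.80, 8.89, 8.70 and 8.52 with mix 2, against 9.46 to 9.79 in control. Mix 2 was below control and mix 1 above it, 2.42-fold apart (SE 0.11 log2, adjusted p = 1.48e-07). AGO4 was at 9.92 to 10.12 with mix 1 and at 8.26 to 8.44 with mix 2, where it overlapped control (8.28 to 8.49), a difference of -1.67 (-1.08 with its probe sets averaged). DICER1, which cuts siRNA and microRNA precursors, was at 10.60 to 10.91 with mix 1 and 9.86 to 9.88 with mix 2 (-0.91), with control at 10.23 to 10.34. AGO3 was 0.48 higher with mix 2 on its brightest probe set, but its 3 other probe sets were lower, by -0.89 to -1.29, and the mean of its probe sets was -0.72. AGO1 (0.33) and TNRC6A (0.62) were higher on their brightest probe sets, and each had 1 other probe set that was lower (down to -0.40 and -0.37). The part of these levels in the differences between the mixes was not tested.

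Some genes used as references for expression also parted the mixes, but most of those tested did not pass. Of 14 tested, 5 were higher with mix 2 (35.7%, against 28.7% of all genes) and 1 was lower (7.14%, against 25%). The lower count was 2 without mix 2 replicate D and 5 with the mean of each gene's probe sets. The other 8 did not pass, and the median was 0.09. Without shared probe sets, 3 of 10 were higher and 4 lower, with a median of -0.01, and TUBB turned from 0.33 to -1.39. IPO8, an importin recommended as a reference gene, was at 8.83, 8.77, 8.71 and 8.75 with mix 1 and at 10.42, 10.39, 10.40 and 10.34 with mix 2, where control was at 10.47 to 10.56. Mix 1 was 3.08-fold below mix 2 (SE 0.05 log2, adjusted p = 8.92e-12); the dimmer IPO8 probe set differed by 0.33 and did not pass, and the mean of both was 0.98. HPRT1 (0.41) and TFRC (0.33) were higher with mix 2, and B2M was lower (-0.19, and -0.30 without shared probe sets). GAPDH differed by -0.06 and did not pass.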

How the data were processed

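The authors deposited 1 table of log2 values made with RMA, per the labels and the submitters' processing notes; the software version is not given in the sources used here. It holds 54675 probe sets on 12 arrays, 4 per group. Of these, 41097 carried 1 gene symbol, 1801 several and 11777 none in GEO's platform annotation. For 41037 of 41091 non-control probe sets with 1 symbol, the symbol was taken from the RefSeq table, whether or not it changed. Each gene took the probe set with the highest mean over all 12 arrays, and genes at or below the 40th percentile (5.46 log2) were left out, which left 13225. Differences were tested with limma 3.58.1 under R 4.3.3 (a mean for each of the 3 groups fitted over the 12 arrays, then eBayes; 9 residual degrees of freedom), two-sided, with Benjamini-Hochberg adjustment over all genes and a threshold of 0.05. In simulated data with the same groups and array numbers, 100 genes were changed by 0.5 log2 and 100 by 1, with independent noise. Of these, 83 and 99 were called, and 13 unchanged genes were called. In the data 53.7% of genes were called, a far larger share, and the Benjamini-Hochberg cut depends on that share. The simulated rates therefore do not carry over to the counts above. Precision is limited by the number of arrays.

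A shared probe set is one that its name marks as matching more than 1 transcript. Named genes were YAP1, WWTR1, ANKRD1, CCN1 and CCN2, the 15 highest and 15 lowest differences whose mixes did not overlap, and up to 4 members per direction of each list; VIM, GAPDH, WTIP, FJX1, EDN1, the leukocyte, endothelial and fibroblast markers given by level and the genes of the closing section were chosen after their values were seen. The members and the 26 lists were chosen with earlier results of these data known. Replicate letters were not used as pairs. Alternatives covered the filter, the probe set rule, array centring, quantile normalization, the eBayes settings, the arrays fitted, the replicate block and each array left out.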

Additional observations from a re-analysis of the deposited data

Results flagged for a closer look

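Among 336 sets of 4 arrays examined (the genes named in the report and 4 array-wide measures, in each mix), 24 (7.14%) held 1 array whose gap to the next exceeded Dixon's 95% critical value; chance gives about 1 in 20. Over all genes the root mean square distance from the group mean was 0.197 for mix 1 replicate C, with the others at 0.155 to 0.157, and 0.219 for mix 2 replicate D, with the others at 0.128 to 0.141.

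Mix 2 replicate D was the low array for EPAS1 (9.87), IGFBP3 (9.21), MPC2 (11.45), NFKBIA (10.17), SNAI2 (8.23), TEAD2 (7.25), TNFRSF21 (9.10), ZMAT3 (9.41), TUBB (12.85) and AGO1 (8.48). Mix 2 replicate B was low for CCN2 (10.28, with the others at 10.40 to 10.42) and replicate A for CD79A (5.79).

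With mix 1, replicate C was low for ITGB8 (8.60, others 9.25 to 9.29) and TGFA (10.09) and high for ADM (11.43), PLAU (11.10) and TP53I3 (10.10). Replicate D was low for FOSL1 (8.53, others 8.91 to 8.93) and HK2 (10.46) and high for HSD17B7 (9.90). Replicate B was low for BAMBI (8.74) and ZMAT3 (8.85). Apart from CD79A, which was not refitted, none of these genes changed its call in the fits that left out 1 array.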

How the results depend on the processing

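The 4 counts of genes kept within 1.5 times under 21 alternatives: 2754 to 4185 higher, 2744 to 3520 lower, 282 to 382 at least 2-fold higher and 372 to 503 at least 2-fold lower. The WWTR1 difference ran from -0.21 to -0.0558 when 1 array was left out. The YAP1 difference ran from -0.22 to 0.03 in the same fits, was -0.25 with probe sets averaged, and did not pass in any of them. With the replicate letter as a block, 4050 genes were higher and 3520 lower. In that fit YAP1 differed by -0.06 (limma, adjusted p = 0.689) and WWTR1 by -0.12 (adjusted p = 0.3). Same-letter deviations correlated at 0.273, -0.085, 0.202 and 0.191, and different-letter ones at -0.247 to 0.274. These values do not settle whether the letters pair. The main fit used no pairs because the replicates were made in parallel. Of 209 named genes, 184 kept their call in every alternative that tested them, and 25 did not. Direction was compared only for differences that passed in the main fit, so the change of sign of YAP1 is not counted. Without shared probe sets 158 of the 209 were tested, and 189 with the filter at the 60th percentile. Among differences that passed, the reversals came from the probe set rule. With probe sets averaged per gene, TUBB was at -0.23, NRG1 at -0.0735, HSPA5 at -0.11, SMAD2 at -0.12, AGO3 at -0.72 and AGO1 at -0.14. Without shared probe sets TUBB was at -1.39, NRG1 at -0.17, TNRC6A at -0.37 and AGO1 at -0.40. Of 1092 list counts, 44 moved by over 1.5 times, 24 of them without shared probe sets, where 10357 genes were tested. Levels below 5.46 log2 limit the fold of genes that are dim with either mix.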

Other observations

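Families outside the lists, picked after their values were seen, also parted the mixes. Of all genes, 28.7% were higher with mix 2 and 25% lower. All 7 tested metallothioneins, small proteins that bind zinc and copper, were higher with mix 2 (limma, adjusted p below 0.05), by 0.66 to 0.99 log2 with a median of 0.71; all 7 are read by shared probe sets. Their median against control was -0.79 with mix 1 and -0.07 with mix 2. Of 18 intraflagellar transport genes, which build cilia, 13 were higher and 2 lower, with a median of 0.33. Of 32 subunits of respiratory complex I, 18 were higher and 1 lower, with a median of 0.19 and NDUFB5 (1.47) and NDUFA6 (1.23) farthest apart. Of 8 p24 cargo receptors of the early secretory pathway, 5 were lower and 1 higher, and TMED5 (-2.14), TMED8 (-1.73) and TMED10 (-1.60) were at least 2-fold lower.

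Probe sets of 1 gene could part the mixes in opposite directions. Of 6425 genes with several probe sets past the filter, 560 (8.72%) had at least 1 called higher and 1 called lower with mix 2. SUB1 (1.35 and -1.30) and SNX13 (1.08 and -1.25) did so at 2-fold or more each way.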
